A study of Mus musculus with 7 samples.

Results

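Many Six-family and Eya genes encode partner proteins that act together in gene regulation. Here 8 genes of these families, Six2, Six3, Six4, Six5 and Eya1 to Eya4, were followed through RNA-seq of whole mouse kidneys. The 8 were taken by symbol from a table of 16167 listed genes, and all of them passed the filter on low values that left 13466 genes for testing. Samples came from embryos at E15.5. Mutants, 4 libraries, carried Six2-Cre and floxed alleles of the neighbouring Iroquois genes Irx3 and Irx5 on both chromosomes, written Irx3/5(loxP/loxP). Controls, 3 libraries, were littermates that had the floxed alleles on 1 chromosome, written Irx3/5(loxP/+), and their labels name no Cre, although they also carry a genotype entry of WT. Six2-Cre is active in nephron progenitors and the nephrons they form, so the stroma, the ureteric tree and vessels of these kidneys are outside its target. The labels do not say how the Cre transgene was built, nor how many embryos entered a library. Effects of the deletion and of the transgene cannot be told apart, and p-values measure the spread between these libraries, which may be technical.

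Six-family proteins bind DNA through a homeodomain and an adjoining Six-type domain, and in several of them the Six-type domain also contacts Eya proteins. Eya proteins do not bind DNA themselves. They are coactivators with a phosphatase domain, and they can enter the nucleus with some Six-family partners. Whether Six3 protein works with Eya proteins in these kidneys was not tested. In the fetal kidney Eya1 is needed for the metanephric mesenchyme to form, and Six2 keeps nephron progenitors from differentiating too early. Six3 is best known from the forebrain and eye, where it is required for their early patterning.

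The members were chosen by name, and Six3 among them on its known rise in mutant FPKM over control FPKM in these libraries. Its difference between the groups is therefore a description without a test. Six3os1 is an RNA gene on the strand opposite to Six3, and its GENCODE M21 span overlaps that of Six3. The sequences before the RefSeq starts of Six3, Six2 and Six3os1, which need not be the GENCODE starts, show how unlike these neighbouring starts are. Each line holds the 250 bases before the RefSeq start, read 5′ to 3′ on the gene's own strand, on build GRCm38.p6, which is not the GRCm39 build behind the expression table. Capitals mark the letters CCAAT on either strand. The positions are chr17:85620584-85620833 on the plus strand for Six3, chr17:85688255-85688504 on the minus strand for Six2 and chr17:85618397-85618646 on the minus strand for Six3os1.
Six3: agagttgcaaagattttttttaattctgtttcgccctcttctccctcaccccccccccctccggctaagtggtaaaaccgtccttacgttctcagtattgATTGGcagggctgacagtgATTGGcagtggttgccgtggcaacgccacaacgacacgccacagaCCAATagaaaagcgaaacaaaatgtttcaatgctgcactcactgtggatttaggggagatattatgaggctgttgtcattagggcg
Six2: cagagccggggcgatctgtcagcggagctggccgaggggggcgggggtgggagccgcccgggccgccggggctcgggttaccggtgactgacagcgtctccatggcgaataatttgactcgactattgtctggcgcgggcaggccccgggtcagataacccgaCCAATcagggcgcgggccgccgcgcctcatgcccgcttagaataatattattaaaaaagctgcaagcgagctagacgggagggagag
Six3os1: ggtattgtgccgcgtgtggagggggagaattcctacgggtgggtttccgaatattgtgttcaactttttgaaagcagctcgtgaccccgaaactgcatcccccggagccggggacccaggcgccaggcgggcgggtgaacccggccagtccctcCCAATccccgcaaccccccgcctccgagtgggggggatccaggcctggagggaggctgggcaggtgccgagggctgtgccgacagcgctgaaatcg

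The Six3 stretch held 3 CCAAT matches, and the Six2 and Six3os1 stretches held 1 each. Of 32851 RefSeq starts scanned over the same length, 33.8% had at least 1 match and 2.79% had 3 or more. Six2 and Six3os1 were rich in CpG, with 26 and 19 of these dinucleotides, and Six3 had 10, against a median of 6 over all starts. TGATAC, a core sequence bound by Six-family proteins, and TCANGTTTC, a longer Six-type sequence, were searched on both strands and matched none of the 3 stretches. They matched 4.6% and 1.0% of all starts. TATAAA, found at 12.4% of all starts, also had no match in the 3 stretches. A match or its absence describes these letters only. RefSeq start entries were at hand for 6 of the 8 members, and TCANGTTTC matched 1 start of Six4.

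The members are related in sequence. The stretch of 120 coding bases in which Six2, the most abundant, and Six3 are most alike, in the part that encodes the end of the Six-type domain, is shown from the longest open reading frame of each gene's GENCODE M21 transcripts. Capitals mark bases that differ.
Six2: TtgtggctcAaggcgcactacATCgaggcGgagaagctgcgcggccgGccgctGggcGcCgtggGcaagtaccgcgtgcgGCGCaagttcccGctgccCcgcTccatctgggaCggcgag
Six3: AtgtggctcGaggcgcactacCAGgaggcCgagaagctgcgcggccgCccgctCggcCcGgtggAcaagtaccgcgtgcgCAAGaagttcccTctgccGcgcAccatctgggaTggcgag

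In this stretch Six2 and Six3 differed at 19 of the 120 bases, an identity of 84.2%. The longest run of identical coding bases was 17. Between Six2 and Six4 that run was 32 bases, and between Six4 and Six5 it was 29. Untranslated bases were not compared, and whether reads of one member were counted for another was not tested.

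Depth was 40511920 to 69028943 reads in the listed genes. Irx3 RNA, which checks the labels, was at 12.7 to 14.7 FPKM (fragments scaled by gene length and sequencing depth) in controls and at 3.98 to 6.75 FPKM in mutants, without overlap. Irx5 was at 1.36 to 1.59 and 0.895 to 2.05 FPKM and overlapped. Which exons the floxed alleles remove is not given in the sources used here, so neither level is a full check. Skeletal muscle markers stood apart in control replicate 1, where the 6 listed of 11 markers summed to 75.6 FPKM against 9.74 to 12.2 FPKM in the other libraries. Actc1, a striated muscle actin, was at 26.2 FPKM there and at 1.69 to 4.06 FPKM elsewhere.

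Six3 RNA was nearly absent from control kidneys and present in every mutant library. Six3 (ENSMUSG00000038805.11) was at 0.0158, 0.0583 and 0.0671 FPKM in control replicates 1 to 3, from 6, 19 and 15 reads. In mutant replicates 1 to 4 it was at 5.19, 4.37, 5.41 and 5.08 FPKM, from 1522, 1114, 1356 and 1419 reads. The groups were far apart, and the mutants lay close together with an SD of 8.93% of their mean. The mean was 0.047 ± 0.0274 FPKM (SD, n = 3) in controls and 5.01 ± 0.448 FPKM (SD, n = 4) in mutants. Summed over libraries and scaled by depth, mutant reads were 117 times control reads, with an exact 95% interval of 85.6 to 163 that covers counting error only. Six3 passed the filter of 1 FPKM in 3 libraries through the mutants alone. In the authors' deposited table its log2 fold change was 6.84 (SE 0.27).

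The level of Six3 in mutants was low beside Six2 and near the middle of all listed genes. Six3 was 10.6%, 15.1%, 12.6% and 11.7% of the Six2 FPKM in mutant replicates 1 to 4, and at most 0.12% of it in the controls. It made up 8.38% ± 0.871 (SD, n = 4) of the summed FPKM of the 4 Six-family genes in mutants. Its level exceeded that of 40.4% to 44.6% of the genes listed in each mutant library. Six3 was the single listed gene with under 0.1 FPKM in every control and over 1 FPKM in every mutant, and 0 genes showed the opposite. Both limits were set after its values were seen.

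**Figure D1:**
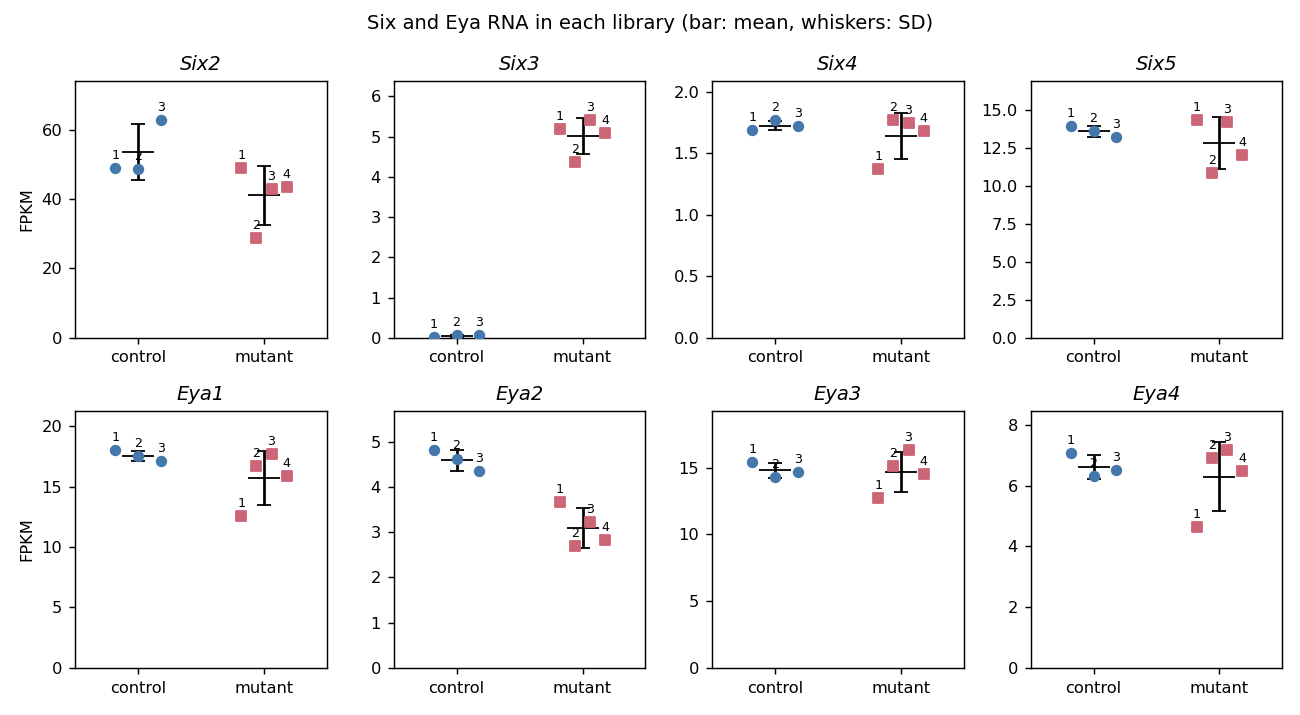
FPKM of the 8 Six-family and Eya genes in each library, with controls as circles, mutants as squares and replicate numbers beside the points; horizontal bars are means and whiskers SD. Six3 sits at 4.37 to 5.41 FPKM in the mutants and under 0.1 in the controls, Eya2 is lower in all 4 mutants, and the groups overlap for the other 6.

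Six2, the progenitor regulator that names the Cre driver, was the most abundant member in all 7 libraries. Six2 (ENSMUSG00000024134.12) was at 49.1, 48.6 and 62.8 FPKM in controls while the mutants stood at 48.9, 28.9, 43 and 43.5 FPKM. The groups overlapped, because mutant replicate 1 reached the level of control replicates 1 and 2, while mutant replicate 2 was the lowest of all. The mutant minus control difference was -0.39 on the log2(FPKM + 1) scale (SE 0.17, 95% interval -0.79 to 0.01; limma adjusted p = 0.384). The mutant mean was 23.2% lower, a difference within the spread between libraries. In whole kidneys fewer progenitors, less RNA per progenitor and an effect of the Six2-Cre transgene cannot be told apart. A set of 10 nephron progenitor markers summed to 198 to 205 FPKM in controls and 139 to 148 FPKM in mutants. By limma 6 were lower and 1 higher, against 1.05% lower and 0.475% higher among all tested genes. The set was drawn up with earlier results of these data known, so its count is no independent evidence. It shares Cited1, Crym, Meox1, Osr1 and Gdnf with the network list below. The 3 most abundant of the 10 markers did not share a direction. Crym was at 36.7 to 40.2 FPKM in controls and 50.4 to 53 FPKM in mutants, Spock2 at 41.3 to 45 and 29 to 33.1 FPKM, and the homeobox gene Uncx at 27.9 to 38.6 and 5.63 to 9.98 FPKM. Their part in the Six2 values was not tested.

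Six4 and Six5, broadly expressed relatives, did not separate the groups. Six4 (ENSMUSG00000034460.10), which works redundantly with other Six-family genes in muscle and sensory ganglia, was the lowest of the Six-family genes in controls apart from Six3. Its level was 1.69, 1.77 and 1.72 FPKM in controls. The mutants were at 1.37, 1.77, 1.75 and 1.68 FPKM. Mutant replicate 1 alone lay below the controls by more than their spread. The difference was -0.05 (95% interval -0.24 to 0.14; limma adjusted p = 0.895). Six5 (ENSMUSG00000040841.6), which lies beside the myotonic dystrophy kinase gene, was at 13.9, 13.6 and 13.2 FPKM in controls and at 14.3, 10.8, 14.2 and 12 FPKM in mutants. Its mutant values lay on both sides of the controls. The difference was -0.09 (95% interval -0.31 to 0.14; limma adjusted p = 0.815). With Six3 present, Six2 made up 67.5% ± 3.28 of the Six-family sum in mutants (SD, n = 4) and 77.5% ± 2.8 in controls (SD, n = 3). The Six-family sum itself was 64.1 to 77.8 FPKM in controls and 45.9 to 69.8 FPKM in mutants.

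Among the Eya coactivators, Eya2 was lower in all 4 mutants and the others overlapped between the groups. Eya2 (ENSMUSG00000017897.19) was at 4.81, 4.63 and 4.35 FPKM in controls and at 3.67, 2.69, 3.23 and 2.82 FPKM in mutants. The highest mutant, replicate 1, remained below the lowest control. The mutant mean FPKM was 32.5% lower. On the log2(FPKM + 1) scale the difference was -0.45 (SE 0.097, 95% interval -0.67 to -0.23), and it missed the threshold over all genes (limma adjusted p = 0.065). Eya2 passed in the authors' deposited table (log2 fold change -0.57, SE 0.14, adjusted p = 0.00284), where 5.49% of genes passed. It also passed with limma's array weights (adjusted p = 0.00248), which called 9.67% of genes, and without mutant replicate 1 (limma adjusted p = 0.0198). Over all 16 alternatives that gave it a value the adjusted p ran from 0.00248 to 0.268, with 3 under 0.05. Without control replicate 1, the library with the highest muscle marker sum, the difference was -0.42 (limma adjusted p = 0.221). Without control replicate 2 it was -0.45 (limma adjusted p = 0.268), and without control replicate 3 it was -0.49 (limma adjusted p = 0.14). Eya2 is also expressed in muscle, and a part of muscle in its values was not tested.

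Eya1 (ENSMUSG00000025932.15), the Eya gene essential for kidney formation, had the highest level of the 4 Eya genes in every library except mutant replicate 1, where Eya3 was marginally above it. It was at 18, 17.5 and 17.1 FPKM in controls and at 12.6, 16.7, 17.7 and 15.9 FPKM in mutants. Mutant replicate 1 was lowest and mutant replicate 3 lay among the controls. The difference was -0.16 (95% interval -0.40 to 0.08; limma adjusted p = 0.61). Eya3 (ENSMUSG00000028886.16), expressed in many tissues, was at 15.4, 14.3 and 14.7 FPKM in controls and at 12.7, 15.1, 16.3 and 14.5 FPKM in mutants. Eya4 (ENSMUSG00000010461.17), known from hearing and heart muscle disease, was at 7.07, 6.31 and 6.5 FPKM in controls and at 4.63, 6.92, 7.16 and 6.48 FPKM in mutants. Neither separated the groups, with differences of -0.02 (95% interval -0.21 to 0.17) for Eya3 and -0.08 (95% interval -0.37 to 0.21) for Eya4. The limma adjusted p was 0.963 for Eya3 and 0.891 for Eya4.

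By group means the order of the levels was Six2, Eya1, Eya3, Six5, Eya4, Eya2 and Six4, and in mutants Six3 stood between Eya4 and Eya2. In controls the ranges of Eya1 (17.1 to 18 FPKM), Eya3 (14.3 to 15.4 FPKM) and Six5 (13.2 to 13.9 FPKM) were separate. Among mutants they overlapped, at 12.6 to 17.7, 12.7 to 16.3 and 10.8 to 14.3 FPKM. The Six3 range in mutants overlapped that of Eya4 (4.63 to 7.16 FPKM), with Six3 above Eya4 in mutant replicate 1, and lay above that of Eya2 (2.69 to 3.67 FPKM). Eya1 was 3.74 to 3.93 times Eya2 in controls, and 3.43, 6.22, 5.47 and 5.64 times Eya2 in mutant replicates 1 to 4. Mutant replicate 1 was below the controls in this ratio, and the other mutants were above them.

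Of the 8 members, Six3 was the 1 called changed by limma, against 1.53% of all tested genes in either direction, 0.475% higher and 1.05% lower. It was chosen for that difference, so nothing is read from the count. The median of the 8 differences was -0.08, beside -0.002 over all tested genes. Groups did not overlap for Six3 and Eya2, 1 higher and 1 lower, against 5.93% higher, 8.61% lower and 14.5% in all among tested genes. Spread was wider among mutants than among controls for every member except Six3, with SDs of 10.3% to 20.7% of the mean against 2.48% to 15%. Mutant replicate 1 had the lowest mutant value of Six4, Eya1, Eya3 and Eya4, and mutant replicate 2 that of Six2, Six3, Six5 and Eya2. Over all tested genes these libraries were lowest for 34.4% and 23.1%.

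**Figure D2:**
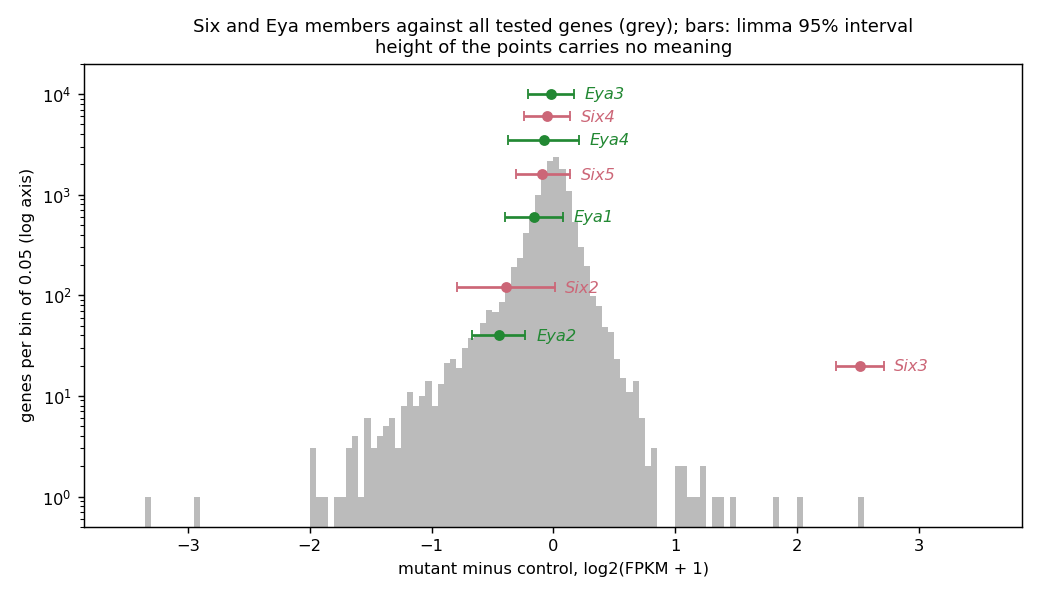
Mutant minus control difference on the log2(FPKM + 1) scale for the 8 members, as points with limma's 95% interval, over a histogram of all 13466 tested genes on a log count axis. Six3 lies at 2.52, beyond every other gene on the right, while the other 7 members lie between -0.45 and -0.02.

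Six3 and Six2 are neighbours in the genome and point towards each other. Gene order was taken from GENCODE M21, and the 4 nearest listed genes on each side were followed, with Six3os1. Six3os1 (ENSMUSG00000093460.10) moved with Six3: it had 3, 1 and 0 reads in control replicates 1 to 3 and 69, 16, 53 and 54 reads in mutant replicates 1 to 4. Each mutant exceeded each control. The ratio of the summed reads, scaled by depth, was 41.4 (exact 95% interval 15.9 to 153, counting error only). The authors' deposited table gave a log2 fold change of 5.40 (SE 0.92). Its reads lay almost wholly in the mutants, so its difference is also a description without a test. At 0.0299 to 0.112 FPKM in mutants it stayed under the filter and was not tested by limma. Its annotated span overlaps that of Six3 by 4791 bases, and its exons share 106 bases with those of Six3 on the opposite strand. The library kit marks strand. How strand was used in counting is not given in the sources used here, so reads of the pair cannot be told apart there. Six3os1 reads came to 4.53%, 1.44%, 3.91% and 3.81% of Six3 reads in the 4 mutants.

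Beyond this pair the neighbours are given by their values. Camkmt, a methyltransferase gene and the first listed gene on the far side of Six3os1, was at 1.87 to 2.27 FPKM in controls and 1.63 to 2.51 FPKM in mutants, a difference of -0.02 (95% interval -0.27 to 0.22). On the other side of Six2, the non-coding gene CJ186046Rik was at 8.89, 7.99 and 8.52 FPKM in controls and at 9.07, 12.7, 12.8 and 11.4 FPKM in mutants. Its groups did not overlap, and the difference of 0.39 missed the threshold (95% interval 0.13 to 0.65; limma adjusted p = 0.143), while the adjusted p in the authors' deposited table was 0.0376. The next non-coding gene, Gm29418, was at 4.65 to 4.97 FPKM in controls and 3.01 to 3.95 FPKM in mutants, a difference of -0.34 in the other direction (limma adjusted p = 0.113). Neither passed by limma, and these 2 genes on the same side of Six2 differed in the sign of their values. Ppm1b, Prepl, Srbd1 and Prkce had differences of -0.11, -0.11, 0.03 and -0.05 (limma adjusted p from 0.447 to 0.953). Ppm1b was at 22.7 to 23.4 FPKM in controls and 20.7 to 22.3 FPKM in mutants, without overlap. Of the 8 neighbours tested, groups did not overlap for 3 lower in mutants, Ppm1b, Gm29418 and Slc3a1, and 1 higher, CJ186046Rik. Among all tested genes the shares were 8.61% lower and 5.93% higher.

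Of the 8 neighbours tested, 1 passed, against 1.53% of all genes. It was Slc3a1, a subunit of a cystine and amino acid transporter of the proximal tubule, which fell from 6.6, 6.88 and 4.89 FPKM to 2.5, 1.89, 0.488 and 1.61 FPKM. Its difference was -1.50 (SE 0.28; limma adjusted p = 0.0495). The call was lost without any of the 3 controls, without mutant replicate 2 or 4, with the replicate block and with a pseudocount of 0.1, and the difference ran from -1.66 to -1.25 when 1 library was left out.

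**Figure D3:**
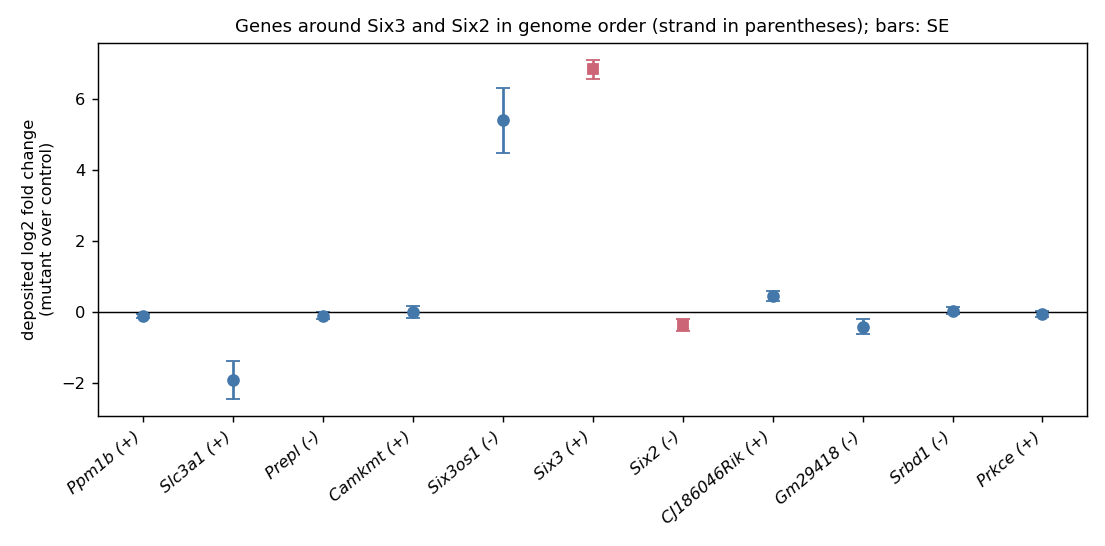
Log2 fold changes with SE from the authors' deposited table for the 11 listed genes around Six3 and Six2, in genome order with the strand of each; squares are members. Six3os1 and Six3 stand at 5.40 and 6.84, Slc3a1 at -1.92, and the other 8 between -0.42 and 0.44.

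Six-family and Eya proteins work with Pax and Dach factors, and in the kidney with Hox11 factors and the progenitor regulators around them. In a list of 18 such genes, 1 rose and 4 fell past limma's threshold and 13 did not pass, against 1.53% of all tested genes. The median difference was -0.11. The list was drawn up with changes of several members known, so its count is no independent evidence.

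Cited1 (ENSMUSG00000051159.17), a coregulator that marks the earliest Six2-positive progenitors, fell the most. It was at 23.3, 23 and 25 FPKM in controls and at 6.34, 4.68, 4.91 and 5.09 FPKM in mutants. The difference was -1.99 (SE 0.095; limma adjusted p = 4.60e-05), and Cited1 passed in all 17 alternatives. Its mutant mean was 0.221 times the control mean, and for Six2, expressed in the same progenitors, the ratio was 0.768. Meox1, a homeobox gene of progenitors, had a difference of -0.90 (SE 0.15; limma adjusted p = 0.0308). Crym, which encodes a thyroid hormone binding protein and is also a progenitor marker, rose from 36.9, 36.7 and 40.2 FPKM to 53, 51.3, 50.4 and 51.7 FPKM. That is a difference of 0.43 (SE 0.059; limma adjusted p = 0.0156). Wt1, a zinc finger regulator of progenitors and podocytes, fell from 54 to 57.3 FPKM in controls to 41.1 to 43.3 FPKM in mutants (limma adjusted p = 0.0156).

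Pax2 passed the test and Pax8 did not. Pax2 (ENSMUSG00000004231.16), which acts with Eya1 and Hox11 proteins to switch on Six2 and Gdnf, was at 39.9, 34.1 and 34.9 FPKM in controls and at 25.2, 20.1, 28.7 and 23 FPKM in mutants. Its difference was -0.57 (SE 0.11; limma adjusted p = 0.0495), and it passed in 5 of 17 alternatives. Pax8 was at 41.9 to 48.8 and 41.2 to 45.8 FPKM, with a difference of -0.07 (95% interval -0.23 to 0.09). Whether Pax2 and Pax8 differ in response was not tested. Of the Dach cofactors, Dach1 was at 29.4 to 32.9 and 30.4 to 36.5 FPKM, a difference of 0.11 (95% interval -0.07 to 0.28). Dach2 was lower in level, at 1.26 to 1.66 FPKM in controls and 1.99 to 2.42 FPKM in mutants. Its groups did not overlap, the limma adjusted p was 0.099, and the authors' deposited table gave 0.00284.

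Among cooperating and downstream genes, Hoxa11, a homeobox gene of the metanephric mesenchyme, had a difference of -0.12 (95% interval -0.31 to 0.06). Gdnf, the ligand that draws the ureteric bud into the mesenchyme and a target of Eya1 and Six2, was at 14.6 to 17.2 FPKM in controls and 11.2 to 16.3 FPKM in mutants, a difference of -0.11 (95% interval -0.38 to 0.17). Wnt4, which drives progenitors to become epithelium, was at 28.6 to 31.3 and 33.1 to 37.5 FPKM. That difference of 0.21 did not pass (limma adjusted p = 0.181), although the groups were apart. By the authors' deposited table, 8 of the 18 genes passed, against 5.49% of all its genes, the added ones being Fgf8 and Mycn, lower, and Dach2, higher, named here after their values were seen. The limma count of 5 was 1, Cited1, when control replicate 1, control replicate 2, mutant replicate 2 or mutant replicate 4 was left out, and 3 when control replicate 3 was.

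**Figure D4:**
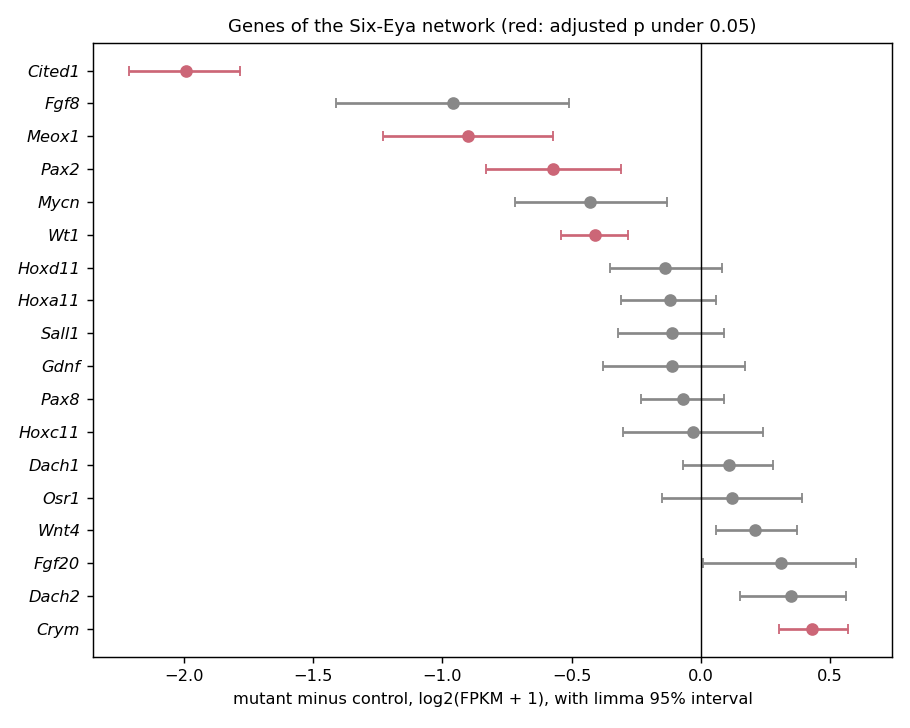
Mutant minus control differences on the log2(FPKM + 1) scale, with limma's 95% interval, for 18 genes that work with Six-family and Eya factors; red marks those past an adjusted p of 0.05. Cited1 lies at -1.99, Meox1, Pax2 and Wt1 are also red on the left, and Crym at 0.43 is the red gene on the right.

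Genes that act with Six3 in the eye field and forebrain were compared next. Of 16 such genes 4 had a row in the table used here, and the other 12 were not analysed here. Emx2, which is itself a kidney gene, was at 31.3 to 39.2 FPKM in controls and 31.4 to 39.7 FPKM in mutants. Shh was at 1.68 to 2.28 and 1.82 to 2.14 FPKM, and Mitf at 2.43 to 2.94 and 1.71 to 2.45 FPKM. Hesx1, a homeobox gene of the forebrain and pituitary, was at 0.321 to 0.656 and 0.609 to 0.937 FPKM and under the filter. Limma called 0 of the 3 tested, and its unadjusted p was under 0.05 for 0 of them. The authors' deposited table also called 0. Markers of neurons and neural crest, with 5 of 8 listed, summed to 5.74 to 11.6 FPKM in controls and 4.4 to 9.13 FPKM in mutants. Of these markers limma called 1 lower and 0 higher, against 1.05% lower and 0.475% higher among all tested genes.

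The other cell types of the kidney give the setting for these levels. Stromal markers, all 6 listed, summed to 158 to 266 FPKM in controls and 212 to 328 FPKM in mutants, with overlap. Ureteric bud markers, all 6 listed, summed to 182 to 191 FPKM in controls and 212 to 228 FPKM in mutants. Their part in the Six-family and Eya values was not tested.

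Patterns most like those of Six3 and Six2 were ranked by Pearson's r of log2(FPKM + 1) over the 7 libraries, as a description in which group, depth and composition are shared by all points. Nearest to Six3 were Snrnp35 (r = 0.9919), a spliceosome gene at 12.9 to 13 FPKM in controls and 13.7 to 13.9 FPKM in mutants, and the retinoid enzyme genes Rdh10 (r = 0.9916) and Aldh1a2 (r = 0.9860). Rdh10 was at 17.9 to 18.7 FPKM in controls and 23.2 to 24.1 FPKM in mutants. Aldh1a2 was at 140 to 141 and 184 to 202 FPKM. Nearest to Six2 were Ctu1 (r = 0.9870), Polr3d (r = 0.9829) and Fpgs (r = 0.9808), genes of transfer RNA modification, RNA polymerase III and folate metabolism. Each of these was, as Six2 was, highest in control replicate 3 and lowest in mutant replicate 2. For Fpgs these values were 17.3 and 12.1 FPKM.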

How the data were processed

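Whole kidneys were profiled by RNA-seq, 3 control and 4 mutant libraries, grouped by sample title. Per the submitters' processing notes, the build was mm39 and the tools named, with no role, were STAR 2.6.0c, HTSeq 0.6.1p2, Trim Galore 0.5.0, FastQC 0.11.5 and DESeq2. The authors deposited, per the file headers, FPKM per library, a normalized mean count signal, log2 fold changes, a test score, and p-values with adjusted values. The lowest mean count of a listed gene is 18.45. Read counts per library, recovered from each gene's mean count and FPKM with 1 size factor a library, were within 0.05 of a whole number for 100% of values. They give depth, and voom used them as an alternative. No 2 libraries agreed within counting noise.

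Genes with at least 1 FPKM in 3 libraries (13466) were fitted with limma 3.58.1 (R 4.3.3) on log2(FPKM + 1), trended and robust, two-sided, with Benjamini-Hochberg adjustment over all genes and a threshold of 0.05, and the procedure was tested on simulated data. Differences on this scale understate changes of low genes. The members, lists and tests were chosen with earlier results of these data known. Named genes were the members, list genes that passed and up to 6 others by role, the highest markers and the 3 patterns most alike. Python 3.11.15, pandas 2.3.3, scipy 1.17.1 and matplotlib 3.10.9 made tables and plots. RefSeq starts were on GRCm38.p6. Alternatives were other filters, a pseudocount of 0.1, other scalings, array weights, no trend or robust steps, a replicate block, voom, the deposited test and omission of each library.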

Additional observations from a re-analysis of the deposited data

Results flagged for a closer look

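Srbd1, a neighbour of Six2, had 1 mutant library apart from the other 3. Mutant replicate 1 was at 9.74 FPKM and replicates 2 to 4 at 11.4 to 11.7 FPKM, so that the gap was 0.835 of the range in mutants. Of 28 genes checked this was the single one, and chance flags about 1 in 20 groups.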

How the results depend on the processing

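Six3 was chosen for its difference, so its values under the alternatives are no sign of stability. The count of members called was 2 in place of 1 with array weights and in the deposited test, where Eya2 joined, and 1 to 2 when 1 library was left out. For the network list, the count of 5 became 8 with array weights, 8 in the deposited test, 1 with the replicate block, and 1 to 5 with 1 library left out. For the neighbours, the count of 1 became 3 with array weights and 3 in the deposited test, 0 with a minimum of 5 FPKM, 0 with a pseudocount of 0.1, 0 with the replicate block, and 0 to 2 with 1 library left out. The 3 in the deposited test included Six3os1, whose reads lay almost wholly in the mutants. The eye and forebrain count was 0 throughout. Small differences changed sign: Eya3 was 0.008 with quantile normalization and 0.012 with array weights, and -0.071 to 0.042 over the omissions. Eya4 was 0.010 with array weights and -0.14 to 0.043 over the omissions, Six4 -0.073 to 0.002 and Gdnf -0.17 to 0.001. The cause was not tested, except that omissions also leave fewer samples. Over 22 named genes and 369 gene and setting pairs, 316 kept side and direction, 35 lost the call, 10 gained it and 8 changed sign. Same-numbered libraries had correlations of deviations of -0.156, 0.028 and 0.098, and differently numbered ones ran from -0.253 to 0.141. With so few libraries these values cannot show whether the numbers mark a shared litter or batch. With the replicate block limma called 2 genes in all in place of 206. Over all genes array weights called 1302, the deposited test 886, a minimum of 5 FPKM 60 and a pseudocount of 0.1 109. Six3 in controls rests on 40 reads in all, and Six3os1 on 4.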
